A study of Homo sapiens with 18 samples.

Results

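The tumour necrosis factor (TNF) superfamily comprises ligands, most of them made as membrane proteins that assemble into trimers, and the receptors they bind. Some receptors carry a cytoplasmic death domain that recruits the adaptors FADD or TRADD and the kinase RIPK1, from which caspases or necroptosis can be started. Most others bind the TRAF adaptors, which lead to the IκB kinases and NF-κB, and several members are themselves NF-κB target genes. In prostate cancer cells the family is known for death signals through TNF, FAS ligand and TRAIL (the product of TNFSF10) and for inflammatory NF-κB signalling.

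The members described here are all genes in the deposited table whose symbols begin with TNFSF or TNFRSF (36 genes) and 20 family genes and adaptors with other names: TNF, LTA, LTB, LTBR, FAS, FASLG, CD40, CD27, CD70, NGFR, EDA2R, TRAF1 to TRAF6, TRADD, FADD and RIPK1. This gave 56 of 28100 genes. Of these, 52 are single protein-coding genes and 4 are readthrough or noncoding transcripts (TNFSF12-TNFSF13, TNFRSF10A-DT, TNFRSF10B-AS1 and TNFRSF14-AS1). A filter on low counts passed 44 of the 56, and the other 12 are given by their counts.

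Polyadenylated RNA was sequenced from LNCaP, a human prostate cancer cell line labelled wild type, in 6 groups of 3 libraries, all taken after 48 h. The control group received RPMI with 10% heat-inactivated serum, and 3 groups received medium conditioned by THP-1 cells, a monocytic leukaemia line, brought to an M0 (unpolarised), M1 (pro-inflammatory) or M2 (immunosuppressive) macrophage state and diluted 1:4. A further pair of groups received the same M1 medium with the solvent DMSO, or with 0.7 μmol/l of IKK16, an inhibitor of the IκB kinases. The samples are numbered replicates of 1 cell line and are not said to be separate cultures, so the p-values below rest on the spread among these libraries only, and that spread may be technical.

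Levels are given as CPM, a count divided by the scaled size of its library as edgeR computes it, for 1 transcript per gene. Gene counts summed to between 24202741.5 and 33814818 in each library, so a gene with no count is limited to 3 counts, or 0.0899 to 0.126 CPM. In bulk RNA, fewer cells with a transcript and less of it per cell cannot be told apart. The summed level of 10 LNCaP markers was 8420 to 8740 CPM in the control libraries and 2590 to 2700 CPM with M1 medium, and the part of this shift in the results on the members was not tested.

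The promoter sequences of 6 members are shown because these genes had some of the largest responses to M1 medium or hold a match to the κB consensus, the sequence NF-κB binds. TNF and LTB are neighbours, at chr6:31575565-31578336 and chr6:31580558-31582425. Each sequence is the 250 bases before a RefSeq start site (GRCh38.p14), read in the direction of the gene, with any match to the consensus in capitals. TNFRSF9 lies on the minus strand at chr1:7940840-7941089, LTB on the minus strand at chr6:31582426-31582675 and TRAF3 on the plus strand at chr14:102777199-102777448. TNFSF10 lies on the minus strand at chr3:172523431-172523680, TNFRSF21 on the minus strand at chr6:47309906-47310155 and TNF on the plus strand at chr6:31575315-31575564.
TNFRSF9: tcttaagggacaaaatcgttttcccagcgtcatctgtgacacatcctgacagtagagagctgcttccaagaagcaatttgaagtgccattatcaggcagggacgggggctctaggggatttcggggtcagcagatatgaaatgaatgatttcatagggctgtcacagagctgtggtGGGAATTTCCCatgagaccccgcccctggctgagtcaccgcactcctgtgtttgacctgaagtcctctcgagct
LTB: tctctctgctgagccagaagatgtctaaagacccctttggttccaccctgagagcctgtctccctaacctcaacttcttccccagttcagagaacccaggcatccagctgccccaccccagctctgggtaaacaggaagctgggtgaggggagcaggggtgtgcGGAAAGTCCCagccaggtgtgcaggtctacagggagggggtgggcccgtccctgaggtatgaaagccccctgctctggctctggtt
TRAF3: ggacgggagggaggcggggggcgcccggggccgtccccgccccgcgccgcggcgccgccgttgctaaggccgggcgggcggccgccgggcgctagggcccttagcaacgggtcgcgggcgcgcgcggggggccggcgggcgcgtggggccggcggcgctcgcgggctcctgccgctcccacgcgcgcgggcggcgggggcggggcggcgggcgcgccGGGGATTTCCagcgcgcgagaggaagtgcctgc
TNFSF10: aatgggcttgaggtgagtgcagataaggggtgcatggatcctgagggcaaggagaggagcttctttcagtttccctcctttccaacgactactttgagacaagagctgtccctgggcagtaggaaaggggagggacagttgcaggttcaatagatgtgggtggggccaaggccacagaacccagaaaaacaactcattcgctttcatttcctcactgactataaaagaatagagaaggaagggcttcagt
TNFRSF21: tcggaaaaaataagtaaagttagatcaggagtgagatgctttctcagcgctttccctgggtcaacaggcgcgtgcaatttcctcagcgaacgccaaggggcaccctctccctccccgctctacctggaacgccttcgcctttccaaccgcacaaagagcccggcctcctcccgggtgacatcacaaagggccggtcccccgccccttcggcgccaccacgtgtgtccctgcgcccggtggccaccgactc
TNF: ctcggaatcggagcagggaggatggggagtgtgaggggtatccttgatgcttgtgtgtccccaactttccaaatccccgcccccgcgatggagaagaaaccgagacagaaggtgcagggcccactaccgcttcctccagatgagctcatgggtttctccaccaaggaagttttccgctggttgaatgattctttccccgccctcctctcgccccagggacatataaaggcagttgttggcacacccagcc

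The κB consensus was searched on both strands of these 250 bases. For 38 of the 56 members the RefSeq promoter table held 54 windows, and 10 windows of 8 genes had a match (18.5% of windows), against 5.21% of all 35116 windows of the table. The match in TNFRSF9 began 74 bases before the start and overlapped a second one on the other strand. In the windows shown, that in LTB began 86 bases before the start and that in TRAF3 33 bases before it. The same LTB match lay 87 bases before another LTB start, so a site can be counted in several windows. The other genes with a match were TNFRSF14, FAS, TNFSF13, LTA and TNFSF14. TNF, TNFSF10 and TNFRSF21 had no match in this window, which says only that these letters are not in it. A match is a description of the sequence and not a bound site.

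M1 medium against control asks how medium conditioned by pro-inflammatory macrophages changes these cells. The control medium was not conditioned, so secreted factors cannot be told apart from other differences between the media. Most tested members rose: 35 of 44 were higher and 5 were lower with M1 medium (edgeR adjusted p under 0.05), where 32.7% of all genes tested were higher and 32.1% lower. At a change of at least 2-fold, 17 members were higher and 2 lower, against 10.2% and 7.95% of all genes. The median log2 fold change of the members was 0.78, against -0.00 over all 17073 genes tested. LTB had no count in control, and its lower bound of 2.89 lies above this median and so cannot move it. With LTB at that bound, the median of the 10 tested ligands went from 4.41 to 3.59. Of the 44, 8 stayed under 10 counts in every library of the control, M0 and M2 groups (TNF, LTB, CD70, TNFSF18, TNFSF8, TNFRSF9, TNFRSF11B and TRAF1). They passed the filter only through the groups with M1 medium, so the filter favoured a rise in them, while members that stayed low everywhere were left out. Even so, TNFSF8 was not called (edgeR adjusted p = 0.13). TNFRSF13C is the reverse case: it passed only through groups without M1 medium, which favoured a fall. The counts by role below describe the members that passed and carry these limits.

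**Figure D1:**
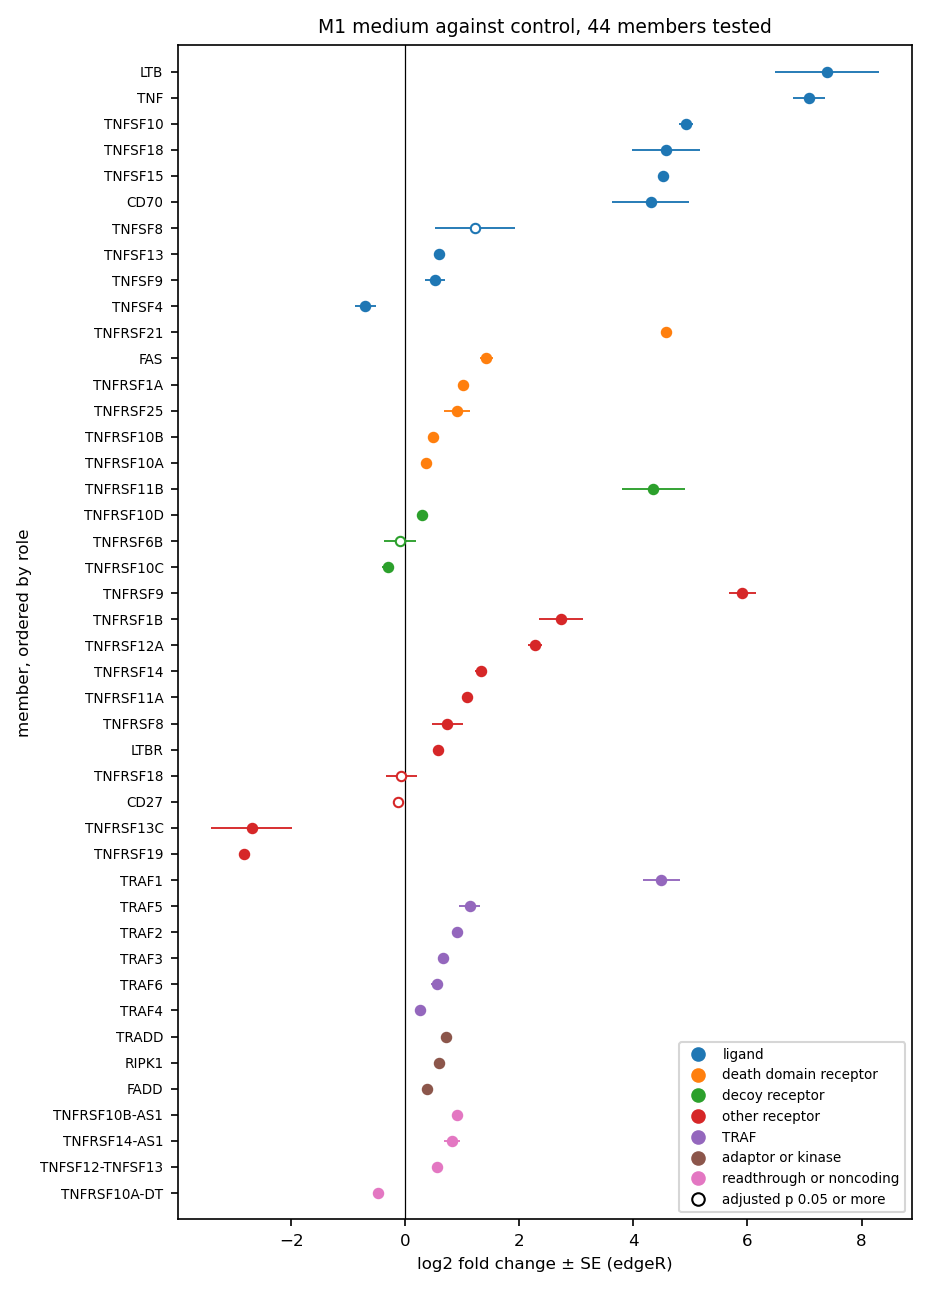
Log2 fold change (edgeR, horizontal axis, bars are SE) of the 44 tested members in M1 medium against control, ordered by role, with open circles for adjusted p of 0.05 or more. Most ligands lie far to the right, all TRAF and death domain members lie right of 0, and TNFRSF19 is the member with a large fall and a small error. The LTB value is fitted against a group with no counts and is not a bound.

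Of the 16 ligands, 10 were tested, and 8 rose and 1 fell. The other 6 stayed under the filter, and 5 of the 10 tested (TNF, LTB, CD70, TNFSF18 and TNFSF8) entered only through the groups with M1 medium. TNF, the founding ligand and an inducer of NF-κB, was measured at 0.0329, 0.105 and 0.062 CPM in the control libraries and at 9.05, 9.08 and 10.3 CPM with M1 medium. The groups lie far apart, and TNF was barely detected without M1 medium. Its log2 fold change was 7.08 ± 0.28 (SE; edgeR adjusted p = 1.64e-16). Summed over the 3 libraries, the counts were 870 against 6, a ratio of 144 with a 95% counting interval of 65.9 to 393.

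TNFSF10 encodes TRAIL, a ligand of the death receptors TNFRSF10A and TNFRSF10B. It was at 3.72, 4.25 and 3.69 CPM in control and at 117, 130 and 107 CPM with M1 medium (log2 fold change 4.92 ± 0.12, edgeR adjusted p = 1.02e-20). TNFSF15 (chr9:114784635-114806039), whose product binds the death domain receptor TNFRSF25, went from 7.8, 7.27 and 9.83 CPM to 195, 189 and 190 CPM (log2 fold change 4.52 ± 0.08, edgeR adjusted p = 4.88e-23). All M1 libraries exceeded all control libraries for both ligands, and the spread within each group was small beside the difference.

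LTB, a subunit of the membrane lymphotoxin that binds LTBR, had no count in any control library and 0.599, 0.782 and 0.816 CPM with M1 medium. Against a floor of 3 counts per control library this is at least 7.39-fold higher. CD70, the ligand of CD27, had 2 counts over the 3 control libraries and 47 over the M1 libraries, at 0.441, 0.51 and 0.587 CPM. Both transcripts are clear of the control group and low in absolute terms. The CD70 ratio was 23.3 with a 95% counting interval of 6.11 to 198. TNFSF18, the ligand of TNFRSF18, likewise had 2 counts against 57, a ratio of 28.3 with an interval of 7.48 to 239.

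The remaining ligands changed less or were not called. TNFSF13, a ligand known from B cell survival, had a log2 fold change of 0.59 ± 0.06 and TNFSF9, the ligand of TNFRSF9, of 0.52 ± 0.17 (edgeR adjusted p = 1.92e-08 and 0.0109). TNFSF4, the ligand of TNFRSF4, fell from 2.63, 2.18 and 2.26 CPM to 1.32, 1.67 and 1.37 CPM (log2 fold change -0.70 ± 0.18, edgeR adjusted p = 0.0016). TNFSF8, the ligand of TNFRSF8, was not called, with a log2 fold change of 1.23 ± 0.70 (edgeR adjusted p = 0.13). The call for TNFSF9 was lost without control replicate 1 or without M1 replicate 3, with an adjusted p of up to 0.115.

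**Figure D2:**
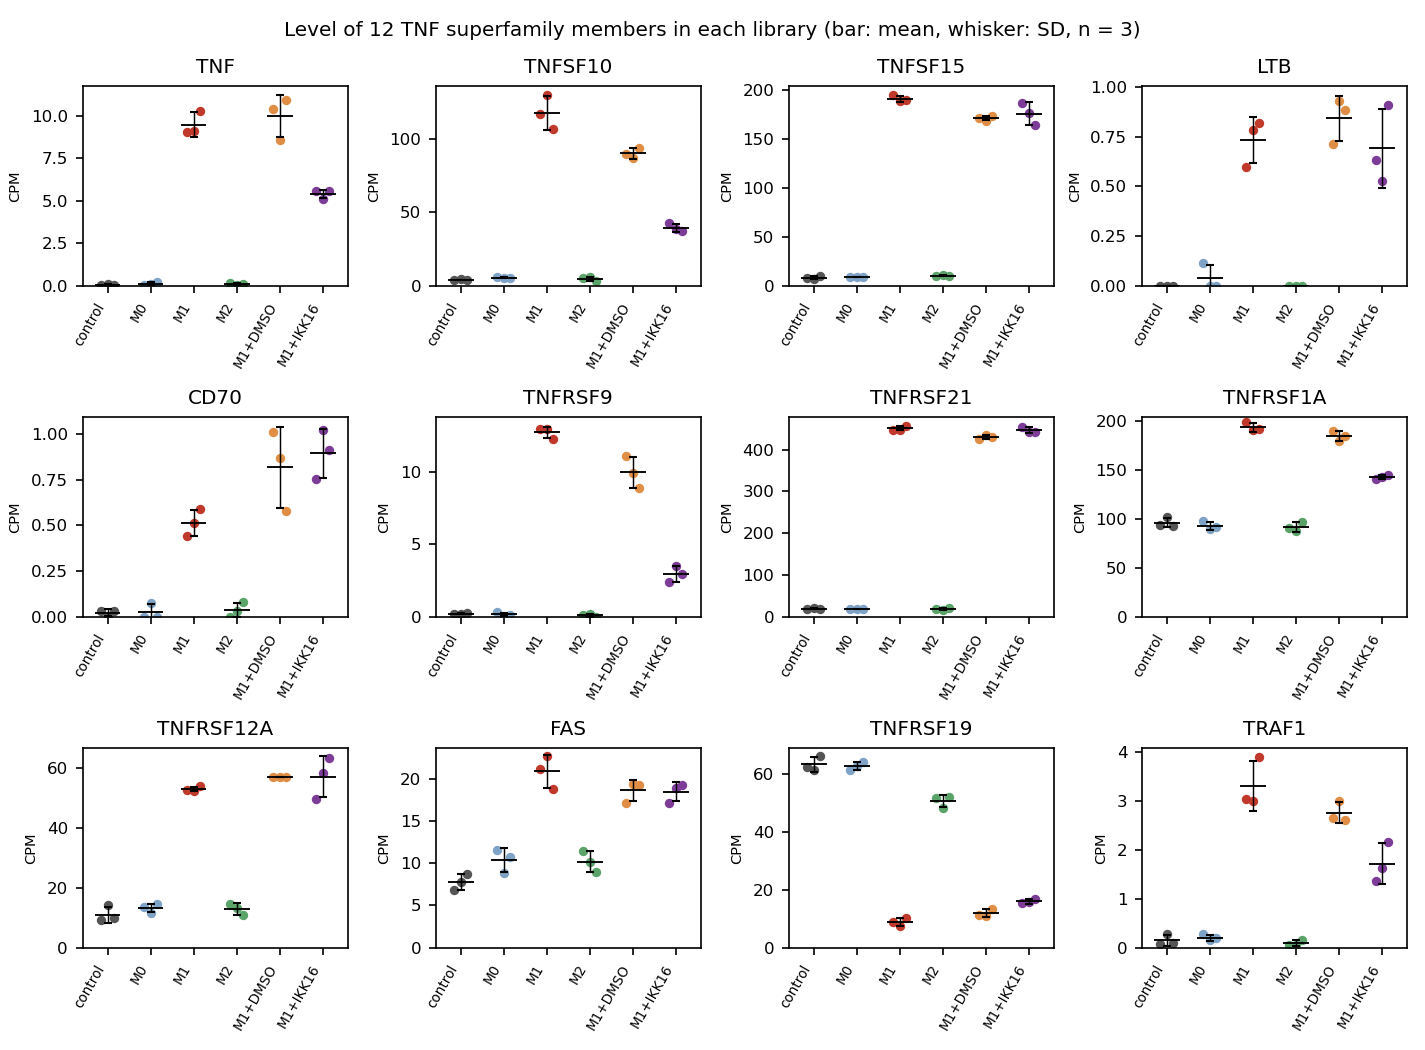
Level in CPM (vertical axis, linear and starting at 0, with a scale of its own in each panel) of 12 members in each of the 18 libraries (points) with the group mean and SD (n = 3). TNF, TNFSF10, TNFSF15, TNFRSF9 and TNFRSF21 are high in the 3 groups with M1 medium and near the control level with M0 and M2 medium, while TNFRSF19 has the reverse order.

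All 6 tested death domain receptors rose. TNFRSF21, a death receptor studied mostly in neurons and T cells, stood at 18.3, 19.8 and 18.8 CPM in control and at 448, 448 and 456 CPM with M1 medium. Its replicates were tight and its log2 fold change of 4.57 ± 0.07 was 23.7-fold (edgeR adjusted p = 3.51e-24). Per kilobase of transcript, TNFRSF21 was at 5.28 ± 0.207 CPM per kb in control and at 125 ± 1.32 CPM per kb with M1 medium (SD, n = 3). On the same scale LTBR, an abundant receptor of the family, was at 132 ± 3.10 and 197 ± 10.8 CPM per kb.

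FAS, the receptor of FAS ligand, rose from 6.85, 7.76 and 8.75 CPM to 21.2, 22.7 and 18.8 CPM (log2 fold change 1.42 ± 0.11, edgeR adjusted p = 5.19e-11). TNFRSF1A, the widely expressed TNF receptor with a death domain, rose from 93.9, 102 and 93.3 CPM to 199, 191 and 192 CPM, a log2 fold change of 1.01 ± 0.05. The groups did not overlap for either receptor. TNFRSF25, TNFRSF10B and TNFRSF10A rose less, by 1.88-, 1.39- and 1.29-fold.

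Decoy receptors bind ligand without passing on a signal, and they did not move as a group: of 4, 2 rose, 1 fell and 1 was not called. TNFRSF11B, osteoprotegerin, which binds the RANK ligand and TRAIL, had 4 counts over the control libraries and 90 over the M1 libraries, a ratio of 22.3 (95% counting interval 8.43 to 83.7). Of the TRAIL decoys, TNFRSF10D rose 1.23-fold. TNFRSF10C went from 8.03, 8.56 and 7.44 CPM to 6.97, 5.98 and 6.49 CPM (log2 fold change -0.30 ± 0.10, edgeR adjusted p = 0.0128), a call lost without control replicate 2 or M1 replicate 2 (adjusted p up to 0.067). TNFRSF6B, a soluble decoy for FASLG and TNFSF15, was at 0.956 ± 0.201 CPM in control and 0.899 ± 0.239 CPM with M1 medium (SD, n = 3).

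Among the other receptors, 7 of 11 tested rose and 2 fell. TNFRSF9, a costimulatory receptor best known from activated T cells, had 0.165, 0.211 and 0.248 CPM in control and 13, 13 and 12.3 CPM with M1 medium. Its log2 fold change was 5.91 ± 0.24 (edgeR adjusted p = 3.87e-16), and no other tested receptor had a larger one. TNFRSF12A, the TWEAK receptor, rose from 9.12, 14.1 and 9.77 CPM to 52.6, 52.5 and 53.9 CPM (log2 fold change 2.27 ± 0.12). TNFRSF1B, the TNF receptor that lacks a death domain, went from 0.165, 0.421 and 0.217 CPM to 1.39, 1.77 and 2.19 CPM (log2 fold change 2.73 ± 0.38, edgeR adjusted p = 1.16e-06).

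TNFRSF14, the receptor of TNFSF14, rose from 8.69, 9.23 and 7.69 CPM to 20.5, 21.4 and 22.2 CPM (log2 fold change 1.32 ± 0.09). TNFRSF11A, the receptor RANK, rose from 6.52, 7.48 and 7.29 CPM to 15.9, 14.5 and 14.5 CPM (log2 fold change 1.08 ± 0.09). LTBR, already abundant, rose 1.49-fold, from 220 ± 5.17 to 328 ± 17.9 CPM (SD, n = 3). TNFRSF8 was called 1.67-fold higher, with groups that overlapped and a call that was lost without control replicate 1 or 3 or M1 replicate 1 or 3 (edgeR adjusted p = 0.02, up to 0.0869).

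TNFRSF19 (chr13:23570412-23676093), a receptor known from developing epithelium and brain, fell most steeply of the members with at least 1 CPM. It stood at 62.4, 61.5 and 66.1 CPM in control and at 8.86, 7.41 and 10.4 CPM with M1 medium, a 7.11-fold fall (log2 fold change -2.83 ± 0.09, edgeR adjusted p = 2.77e-18). TNFRSF13C, a B cell receptor, fell from a low level of 0.378 ± 0.268 to 0.0545 ± 0.0376 CPM (SD, n = 3). It passed the filter only through groups without M1 medium, so the filter favoured its fall. CD27 and TNFRSF18 were not called, with log2 fold changes of -0.13 ± 0.08 and -0.07 ± 0.27.

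All 6 TRAF genes and the 3 proximal signalling genes rose with M1 medium, most by less than 2-fold. TRAF1, the TRAF without a RING domain and an NF-κB target, was at 0.0658, 0.281 and 0.0931 CPM in control and at 3.03, 2.99 and 3.88 CPM with M1 medium (log2 fold change 4.49 ± 0.32, edgeR adjusted p = 1.41e-11). TRAF5 rose from 1.38, 1.16 and 1.33 CPM to 2.9, 2.96 and 2.64 CPM (log2 fold change 1.13 ± 0.18). The other TRAF genes were already well expressed in control. TRAF2, a partner of TRADD and TRAF1, rose 1.88-fold, TRAF3, a brake on the noncanonical NF-κB pathway, 1.60-fold, TRAF6, which also serves interleukin and Toll-like receptors, 1.47-fold and TRAF4 1.19-fold.

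TRADD, the adaptor of TNFRSF1A, rose from 26.1, 27.1 and 22.9 CPM to 38.1, 41.1 and 45.8 CPM (log2 fold change 0.72 ± 0.09). RIPK1, the kinase that joins these receptors to NF-κB or cell death, rose from 27.1, 26.4 and 30.4 CPM to 41.8, 42.6 and 43 CPM (log2 fold change 0.60 ± 0.07). FADD, which recruits caspase-8, rose from 42.6, 44.3 and 39.3 CPM to 53.9, 54.2 and 56.2 CPM (log2 fold change 0.38 ± 0.06). No control library reached an M1 library for any of these 3 genes.

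Of the readthrough and noncoding members, TNFRSF10B-AS1, TNFRSF14-AS1 and TNFSF12-TNFSF13 rose 1.87-, 1.77- and 1.48-fold and TNFRSF10A-DT fell 1.40-fold. These are uncertain, because the use of strand in the counting is not given in the sources used here and each overlaps or adjoins a coding member. TNFSF12-TNFSF13 and TNFSF13 held nearly the same counts in total, 30145 and 29598, and the 2 cannot be told apart. The same limit holds for CD27, whose 11737 counts stand beside 13259 for the overlapping CD27-AS1, and for TNFRSF6B, whose 508 counts lie inside RTEL1-TNFRSF6B with 10385. TRAF1 overlaps PHF19, TNFRSF25 overlaps ESPN, LTBR overlaps SCNN1A, TNFRSF10C overlaps LOC254896, TNFSF4 overlaps LOC100506023 and FAS overlaps ACTA2.

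The 12 members under the filter were mostly silent in LNCaP. FASLG, the ligand of FAS, had 0 counts in all 18 libraries. TNFRSF13B, TNFRSF17, TNFSF11 and TNFSF14 had 1 to 1.5 counts in total, TNFRSF4 11, TNFSF13B 12, LTA 16, CD40 20.5, EDA2R 27.5, NGFR 39 and TNFSF12 88. TNFSF12 overlaps TNFSF12-TNFSF13, which had 30145 counts, so its low count carries the limit given above for overlapping members. EDA2R had 9 counts over the control libraries and 0 over the M1 libraries, and tested without the filter it was called lower (edgeR adjusted p = 0.0152). Of the 39 NGFR counts, 18 came from the M2 group. The other members under the filter with any count were not called with M1 medium against control when the filter was left out. CD40, the receptor through which T cells activate B cells, reached at most 0.219 CPM in 1 library, and LTA, the lymphotoxin chain that pairs with LTB, at most 0.192 CPM.

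Of 16 ligand and receptor pairs known from textbooks, both partners rose with M1 medium in 7: TNF with TNFRSF1A and with TNFRSF1B, LTB with LTBR, TNFSF10 with TNFRSF10A and with TNFRSF10B, TNFSF15 with TNFRSF25, and TNFSF9 with TNFRSF9. In 4 pairs the receptor rose and the ligand was under the filter, which were FAS, TNFRSF12A, TNFRSF11A and TNFRSF14. The low count of TNFSF12, the ligand of TNFRSF12A, is uncertain because of its overlap with TNFSF12-TNFSF13. LTA, the chain that pairs with LTB, was under the filter as well. CD70 and TNFSF18 rose while their receptors CD27 and TNFRSF18 were not called. TNF, LTB, CD70, TNFSF18 and TNFRSF9 passed the filter only through the groups with M1 medium, which favoured their part in these counts. Of all tested members 79.5% rose in any case, against 32.7% of all genes tested, so the pairs are a description only.

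Macrophage markers were checked because the medium came from macrophage-like cells. Of 15 markers, 8 were tested, and 6 were higher and 2 lower with M1 medium, against 32.7% and 32.1% of all genes tested. Their summed level was 228 to 231 CPM in control and 264 to 290 CPM with M1 medium, most of it CSF1R. Counts over the 3 control and the 3 M1 libraries were 449 and 3368 for CD68, a lysosomal protein, 15 and 1825 for ITGAM, an integrin chain, and 8 and 1749 for S100A9, an inflammation-induced calcium-binding protein. They were 5 and 209 for LYZ, 0 and 169 for S100A8 and 2 and 74 for LAPTM5, and these 6 are the markers that were higher. All of them but CD68 passed the filter only through the groups with M1 medium, so the filter favoured a rise in them. CSF1R, with 20348 and 17894 counts, and SPI1, with 48 and 12, were lower. The other 7 were under the filter: TYROBP, PTPRC and MRC1 had no count in the M1 libraries, and CD14, CD163, AIF1 and FCER1G had 2, 5, 5 and 6. The part of these markers in the results on the members was not tested. None of 6 lymphocyte markers passed the filter, and their sum was at most 0.31 CPM in any library.

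Genes that act with or below these receptors were listed by function. The lists were drawn up with earlier results of these data known, so their counts are a description only. In 4 of the 5 lists most tested genes rose. Beside each list count with M1 medium stand 32.7% higher and 32.1% lower over all genes tested. Of the apoptosis and necroptosis effectors, 9 of 10 tested were higher and 0 lower (median log2 fold change 0.96). CASP10, an initiator caspase of the death receptors, rose from 2.99 ± 0.44 to 62.5 ± 1.32 CPM (SD, n = 3), a log2 fold change of 4.38 ± 0.09. CASP8, the other initiator, had a log2 fold change of 1.62 ± 0.07.

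Of 13 tested ubiquitin ligases and deubiquitinases of the receptor complexes, 8 were higher and 1 was lower (median 0.28). BIRC3, a ligase bound to TRAF2, rose from 4.76 ± 0.309 to 356 ± 22.4 CPM (SD, n = 3), and TNFAIP3, the A20 brake on NF-κB, from 1.85 ± 0.456 to 74.6 ± 1.89 CPM. Their log2 fold changes were 6.22 ± 0.07 and 5.33 ± 0.10. CYLD, a deubiquitinase, had 1.64 ± 0.09, and SHARPIN, of the linear ubiquitin ligase, -0.18 ± 0.07.

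Of 22 kinases and NF-κB subunits, 18 were higher and 1 lower (median 1.12). RELB, the noncanonical NF-κB subunit, had the largest log2 fold change of the list, 4.53 ± 0.11, followed by the inhibitor NFKBIE at 2.76 ± 0.08 and the kinase IKBKE at 2.75 ± 0.11. TAB1, a partner of the kinase TAK1, fell (-0.31 ± 0.06). Of 11 tested TNFAIP and TRAF-associated genes, 7 were higher and 2 lower (median 0.75), with TNFAIP2 at 2.12 ± 0.17, TNFAIP8 at 0.92 and TRAFD1 at 0.87 above and TRAIP at -1.20 ± 0.10 and TNFAIP8L1 at -1.13 ± 0.14 below.

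A further list held superfamily genes with other names, an ectodysplasin adaptor, LITAF and sheddases. Of its 8 tested genes, 4 were higher and 3 lower (median 0.14), and none of those higher was a superfamily ligand or receptor. ADAM17, the protease that releases TNF from the membrane, rose from 24.4 ± 0.456 to 51.5 ± 1.66 CPM (SD, n = 3; log2 fold change 1.08 ± 0.06). The related ADAM10 rose by 0.90 and LITAF by 0.64. EDA, the ligand ectodysplasin, fell (-0.84 ± 0.06), and so did RELL2 (-0.62) and the receptor RELT (-0.51).

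M0 and M2 medium ask whether macrophage medium as such, or another polarisation, has these effects. With M0 medium 2 of 44 members were higher than control and 0 lower, against 7.06% and 4.51% of all genes tested. FAS was at 11.6, 8.89 and 10.7 CPM (log2 fold change 0.42 ± 0.12, edgeR adjusted p = 0.0257) and TNFSF10 at 5.68, 5.36 and 5.53 CPM (0.51 ± 0.14, edgeR adjusted p = 0.0266). Neither gene's M0 libraries overlapped its control libraries. This comparison and the next one share the control libraries.

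With M2 medium 2 members were higher and 1 was lower than control, against 5.34% and 3.37% of all genes. FAS was at 11.4, 10.2 and 8.98 CPM (log2 fold change 0.39 ± 0.12, edgeR adjusted p = 0.0366). TNFSF15 was at 9.62, 10.8 and 10.3 CPM, a range that overlapped control (0.30 ± 0.09, edgeR adjusted p = 0.0386). TNFRSF19 was at 51.6, 48.4 and 52.2 CPM, below every control library (-0.32 ± 0.08, edgeR adjusted p = 0.0142). All 5 calls of the M0 and M2 comparisons were lost when at least 1 of several single libraries was left out, among them control replicate 1 in each case (adjusted p up to 0.24). The 2 FAS calls were also lost once the trend of each library with transcript length was removed.

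TNF itself stayed at the edge of detection in both groups, at 0.0384, 0.0735 and 0.231 CPM with M0 medium and 0.156, 0.0321 and 0.0791 CPM with M2 medium. TNFRSF21 was at 18.5 ± 0.618 CPM with M0 and 18.6 ± 2.71 CPM with M2 medium, beside 19.0 ± 0.746 CPM in control (SD, n = 3). Between M2 and M0 medium, edgeR called 0 members higher and 0 lower, against 0.0% and 0.105% of all genes. At an unadjusted p under 0.05, 7 members differed, and DESeq2 called 1 lower, TNFRSF19 (log2 fold change -0.31, adjusted p = 0.027).

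M1 against M2 medium tests the difference between the polarisations directly. With M1 medium 35 members were higher and 4 lower than with M2 medium, against 33.8% and 33.7% of all genes. TNF (log2 fold change 6.65 ± 0.27), TNFRSF9 (6.91 ± 0.27), TNFSF10 (4.61 ± 0.11), TNFRSF21 (4.60 ± 0.07) and TNFSF15 (4.22 ± 0.08) were higher, and TNFRSF19 was lower (-2.51 ± 0.09, edgeR adjusted p = 2.88e-17). LTB, with no count in the M2 libraries, was at least 7.12-fold higher. The 8 members that passed the filter only through the groups with M1 medium, among them TNF, TNFRSF9 and LTB, carry the same limit here. The filter favoured a rise in them against M2 medium as well. This comparison and M1 against control share the M1 libraries.

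The solvent had a small effect. Between M1 medium with DMSO and M1 medium alone, 2 members were higher and 1 lower, against 2.56% and 1.97% of all genes. TNFSF10 was lower, at 90.1, 87 and 94.2 CPM beside 117, 130 and 107 CPM (log2 fold change -0.38 ± 0.09, edgeR adjusted p = 0.0164). TNFRSF19 was higher, at 11.2, 11.1 and 13.5 CPM (0.42 ± 0.10, edgeR adjusted p = 0.0189), as was TNFRSF10A-DT (0.29 ± 0.08, edgeR adjusted p = 0.0474). All 3 calls were lost when 1 of several single libraries was left out, among them M1 replicate 1 in each case (adjusted p up to 0.261). IKK16 was compared with DMSO, which carries the same solvent.

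IKK16 against DMSO, both in M1 medium, asks what part NF-κB signalling has in the response to M1 medium. With IKK16 13 members were lower and 2 higher, against 13.2% and 13.9% of all genes tested, and 3 were lower by at least 2-fold, against 1.66%. The median log2 fold change of the members was -0.16, against 0.00 over all genes. All 13 lowered members were among the 35 that M1 medium had raised against control, a comparison with no library in common. Among the 13, TNF, TNFRSF9, TNFRSF11B and TRAF1 passed the filter only through the groups with M1 medium, so the filter favoured their being raised. Of the tested members 79.5% were raised by M1 medium in any case, and over all genes 75.7% of the 2256 lowered by IKK16 had been raised by it. The 13 make up 37.1% of the 35 raised members. Over all genes, 30.6% of those raised by M1 medium were lowered by IKK16.

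**Figure D3:**
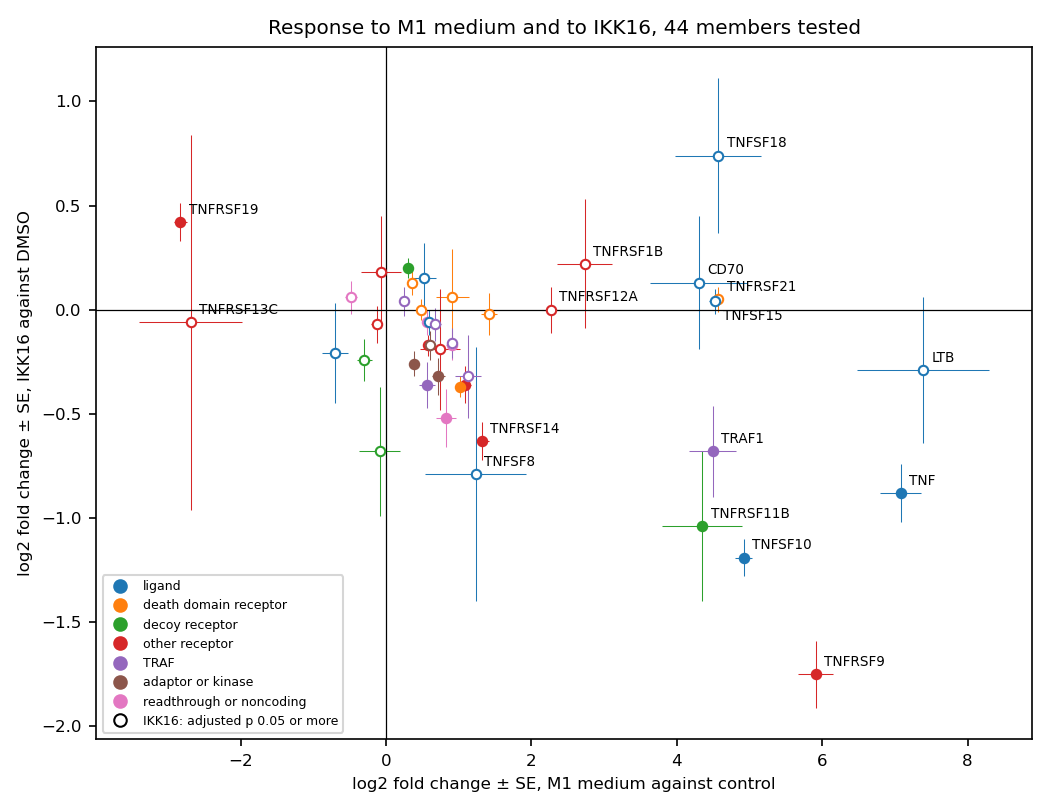
Log2 fold change with M1 medium against control (horizontal axis) and with IKK16 against DMSO in M1 medium (vertical axis) for the 44 tested members, bars are SE, filled circles had an adjusted p under 0.05 for IKK16. Of the members with the largest rises, TNFRSF9, TNFSF10 and TNF lie well below 0 on the vertical axis, while TNFRSF21, TNFSF15 and CD70 lie close to 0.

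TNFRSF9 fell most, from 11.1, 9.98 and 8.9 CPM with DMSO to 2.42, 3.5 and 2.96 CPM with IKK16 (log2 fold change -1.75 ± 0.16, edgeR adjusted p = 1.7e-08). TNFSF10 fell from 90.1, 87 and 94.2 CPM to 42.6, 38.5 and 37.5 CPM (-1.19 ± 0.09, edgeR adjusted p = 6.42e-10). TNF fell from 10.4, 8.57 and 10.9 CPM to 5.54, 5.12 and 5.54 CPM (-0.88 ± 0.14, edgeR adjusted p = 3.59e-05). The groups did not overlap for any of the 3, yet each stayed above control: of its rise over control with DMSO, TNFRSF9 kept 28.1%, TNFSF10 41.2% and TNF 53.9%. Leaving out 1 library at a time, an alternative chosen after seeing the data, gave 25.4 to 30.9%, 39.4 to 42.3% and 50.4 to 56.6%.

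TNFRSF14 fell from 21.3, 22 and 20.1 CPM to 13.3, 14 and 13.8 CPM (log2 fold change -0.63 ± 0.09, edgeR adjusted p = 1.62e-05). TRAF1 fell from 2.64, 3 and 2.61 CPM to 1.35, 1.63 and 2.16 CPM (-0.68 ± 0.22, edgeR adjusted p = 0.0215). TNFRSF11B fell from 1.09, 1.02 and 1.07 CPM to 0.554, 0.447 and 0.531 CPM (-1.04 ± 0.36, edgeR adjusted p = 0.0323). The TNFRSF11B call was lost when any 1 of the 6 libraries was left out (adjusted p up to 0.107), and that of TRAF1 without DMSO replicate 2 or IKK16 replicate 1 or 2 (up to 0.113).

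Smaller falls were found in receptors and adaptors of the TNF pathway. TNFRSF1A fell from 190, 180 and 185 CPM to 141, 143 and 145 CPM (log2 fold change -0.37 ± 0.05, edgeR adjusted p = 7.48e-06). TRADD fell from 48.9, 48.8 and 43.9 CPM to 33.7, 39.4 and 40.2 CPM (-0.32 ± 0.09) and FADD from 57.8, 60 and 58 CPM to 46.2, 47.4 and 53.3 CPM (-0.26 ± 0.06). TRAF6, at 7.89, 7.61 and 7.94 CPM with DMSO and 5.38, 6.22 and 6.6 CPM with IKK16 (-0.36 ± 0.11), overlapped its control libraries at 6.55, 5.23 and 5.21 CPM. The share of its small rise that was left, 18.9%, was 6.43% without IKK16 replicate 3 and 34.8% without IKK16 replicate 1. LTBR, TNFRSF11A and TNFRSF14-AS1 were also lower. The call for TRADD was lost without IKK16 replicate 1, and that for TRAF6 without it or without DMSO replicate 3.

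The other 22 members raised by M1 medium were not lowered, and several of the largest rises are among them. TNFRSF21 stood at 426, 436 and 429 CPM with DMSO and at 455, 442 and 442 CPM with IKK16 (log2 fold change 0.05 ± 0.06, edgeR adjusted p = 0.542). TNFSF15 stood at 172, 169 and 174 CPM and at 187, 177 and 164 CPM (0.04 ± 0.06, edgeR adjusted p = 0.724). Both errors are small beside the fall of TNFSF10, and the responses of different members were not tested against each other. TNFRSF12A was at 57, 57 and 56.9 CPM and at 49.8, 58.2 and 63.3 CPM (0.00 ± 0.11).

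FAS, at 17.2, 19.4 and 19.3 CPM with DMSO and 17.2, 18.9 and 19.3 CPM with IKK16, had a log2 fold change of -0.02 ± 0.10. LTB was at 0.713, 0.929 and 0.882 CPM and at 0.633, 0.528 and 0.911 CPM, a log2 fold change of -0.29 ± 0.35, and its counts are few and its error wide. CD70, at 1.01, 0.869 and 0.576 CPM with DMSO and 0.752, 1.02 and 0.911 CPM with IKK16, is in the same position (0.13 ± 0.32). RIPK1 was at 39.4, 41.6 and 42 CPM and at 35.9, 34.6 and 38.8 CPM, groups that did not overlap but missed the threshold (-0.17 ± 0.07, edgeR adjusted p = 0.0593, and 0.0333 to 0.0499 under 7 alternatives that called it lower). TRAF3 was at 109 ± 0.777 and 104 ± 5.41 CPM (SD, n = 3), TRAF2 at 67.5 ± 1.42 and 60.4 ± 2.82 CPM, TRAF4 at 305 ± 6.30 and 313 ± 14.7 CPM and TRAF5 at 1.98 ± 0.182 and 1.58 ± 0.255 CPM, none of them called. Of the 8 genes with a κB match in the promoter window, TNFRSF9 and TNFRSF14 were lower with IKK16, LTB, TRAF3, FAS and TNFSF13 were not called, and LTA and TNFSF14 were under the filter. Of all genes raised by M1 medium 30.6% were lower with IKK16, and whether a match goes with the response was not tested.

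**Figure D4:**
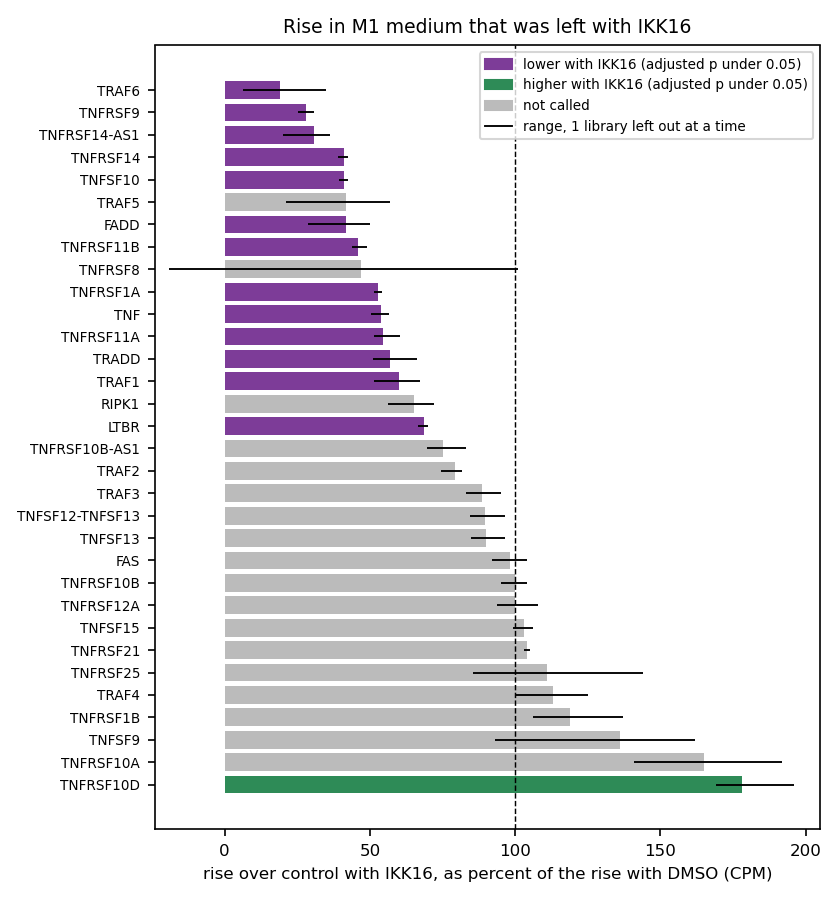
Rise over control with IKK16 as a percent of the rise with DMSO (horizontal axis, from group mean CPM) for the 32 members raised by M1 medium that had at least 1 CPM with DMSO, with the dashed line at 100% and thin lines for the range when 1 library is left out at a time. TNFRSF9 (28.1%), TNFSF10 (41.2%) and TNF (53.9%) have short ranges, as do TNFSF15 (103%) and TNFRSF21 (104%), the range is wide for members with small rises such as TRAF6, and TNFRSF10D (178%) was called higher with IKK16.

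The 2 members that IKK16 raised were TNFRSF19 and TNFRSF10D. Of the 5 members lowered by M1 medium, TNFRSF19 was thus the 1 that IKK16 raised, against 29.9% over all genes lowered by M1 medium. TNFRSF19, which M1 medium lowers, was at 11.2, 11.1 and 13.5 CPM with DMSO and at 15.3, 15.9 and 16.7 CPM with IKK16 (log2 fold change 0.42 ± 0.09, edgeR adjusted p = 0.00177), still far below control. The TRAIL decoy TNFRSF10D was at 71.8, 71.4 and 75.5 CPM and at 86.2, 85 and 80.1 CPM (0.20 ± 0.05, edgeR adjusted p = 0.00363). Against control, which received no DMSO, 31 members were higher and 4 lower with M1 medium and IKK16, beside 26.8% and 25.6% of all genes. Here too the filter favoured a rise in the members that passed only through the groups with M1 medium.

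The downstream genes followed more than one pattern with IKK16. Beside each list count with IKK16 stand 13.2% lower and 13.9% higher over all genes tested. Of all genes raised by M1 medium, 30.6% were lower with IKK16. In the apoptosis list 5 of 10 were lower and 0 higher, CASP10 falling from 50.9 ± 1.52 to 28.7 ± 1.11 CPM (SD, n = 3; log2 fold change -0.82 ± 0.07). In the ubiquitin list 6 of 13 were lower and 2 higher. TNFAIP3 fell from 60.5 ± 2.60 to 31.0 ± 1.15 CPM (-0.96 ± 0.07), while BIRC3 rose from 297 ± 3.68 to 373 ± 23.8 CPM (0.33 ± 0.05, edgeR adjusted p = 6.47e-05).

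Of the kinases and NF-κB subunits 9 of 22 were lower and 2 higher, with RELB at -0.52 ± 0.08. Of the TNFAIP and TRAF-associated genes 4 of 11 were lower and 1 higher, TNFAIP2 at -0.83 ± 0.15 and TRAIP at 0.62 ± 0.10. In the list with the sheddases, LITAF and other superfamily genes 2 of 8 were higher and 0 lower. Of the macrophage markers 5 of 8 were lower and 1 higher with IKK16, S100A9 falling from 1260 to 325 counts, and their sum was 255 to 273 CPM with DMSO and 259 to 277 CPM with IKK16.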

How the data were processed

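The deposited values are expected counts for each RefSeq transcript, written by the authors as multiples of 0.5 with no normalisation. Trimmomatic, BWA 0.7.17, HOMER 4.10 and the build hg38 are named in the submitters' processing notes. What each tool did, whether strand was used and how multi-mapping reads were treated is not given in the sources used here.

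Transcripts were named with an NCBI table (GRCh38.p14) or GENCODE 29. 334 transcripts without a name stayed out, with 0.0883 to 0.109% of a library's counts. Each gene is represented by its transcript of highest total count, so a change of transcript can appear as a change of level. Counts were rounded to whole numbers and tested in R 4.3.3 by the quasi-likelihood test of edgeR 4.0.16 (TMM, filterByExpr on 6 groups, all 18 libraries, 1 mean per group). This kept 17073 genes and left out 11027. P-values are two-sided and Benjamini-Hochberg adjusted over all genes tested, with 0.05 as threshold. The SE was taken as log2 fold change over the root of F. The script was tested on simulated data. Replicates differed by more than sampling noise.

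The members, gene lists and tests were chosen with earlier results of these data known. Members were named by rule: the 12 largest rises and 8 largest falls called with M1 medium at 1 CPM or more in either group, all called with M0, M2 or DMSO, the 6 largest each way with IKK16, and TNF, LTA, LTB, FAS, FASLG, CD40, CD70, TRADD, FADD, RIPK1 and the TRAF genes. Others are summarised by role, and up to 3 genes a direction were named per list. A gene that this rule would name is not reported here. Counting intervals and the floor of 3 counts cover counting error only, since PCR copies are not independent molecules. Alternatives were DESeq2 1.42.0, its size factors in edgeR, no filter, 1 CPM in 3 libraries, the groups compared alone, a replicate block, the longest transcript, a length correction and each library left out.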

Additional observations from a re-analysis of the deposited data

How the results depend on the processing

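Across the called results and 8 comparisons, no alternative reversed a direction: 1826 of 1900 recomputed results kept direction and call and 74 lost the call. With M1 medium against control 37 of 40 called members kept the call under every alternative run, and with IKK16 against DMSO 11 of 15, whereas 0 of 2 (M0), 0 of 3 (M2) and 0 of 3 (DMSO against M1) did. Leaving out 1 library at a time gave 33 to 36 members higher and 4 to 5 lower with M1 medium against control, 34 to 35 and 4 against M2, and 30 to 31 and 2 to 3 with IKK16 against control, the 2 coming without IKK16 replicate 2. It gave 9 to 13 members lower with IKK16 against DMSO, the same range for those also raised by M1 medium, and 2 higher.

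For M0 medium it gave 0 to 4 higher, with 0 without control replicate 1 or M0 replicate 1 or 3, 1 without control replicate 3 and 4 without control replicate 2. For M2 medium it gave 0 to 3 higher and 0 to 2 lower, with 0 of each without control replicate 1 or M2 replicate 1 or 2, and 2 lower without M2 replicate 3. For DMSO against M1 it gave 0 to 2 higher and 0 to 1 lower, with 0 of each without M1 replicate 1 or 2 or DMSO replicate 1. It gave 0 higher without DMSO replicate 3, and 1 higher and 0 lower without DMSO replicate 2.

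Fitting the 2 groups alone gave 1 member higher with M0, 0 higher with M2, and 1 higher and 3 lower with DMSO. Removing the length trend gave 1 higher and 2 lower with M2. DESeq2 gave 1 member lower between M2 and M0, and no filter gave 1 higher with DMSO. The cause was not tested. The replicate numbers do not pair the samples: same-numbered deviations correlated at -0.148 to 0.154, and 4 of 18 libraries were closest to their own number. With the replicate block 1 member was higher with DMSO, and no other count moved by over 1.5 times. Depth limits the low members: LTB, CD70, TNFSF18 and TNFRSF11B had at most 4 counts in the control group. The share of the rise of TNFRSF8 that was left with IKK16, recomputed after seeing the data, was 47.1%, with a range from -19.1% without IKK16 replicate 2 to 101% without IKK16 replicate 1.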
